A study of Homo sapiens with 20 samples.

Results

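The 33 genes described here are interferon-stimulated genes and genes of antigen presentation, chosen by name for their known function, with no threshold on measured values. The choice was made with earlier results of these data known. Their shares against all genes are therefore a description and no independent test. Their RNA was measured in 5 human tumor cell lines after 24 h with the tankyrase inhibitor G007-LK (1 µM) or the vehicle DMSO (0.01%). The study treats the colorectal line COLO 320DM, the kidney line UO-31, the ovarian line OVCAR-4 and the lung line ABC-1 as sensitive to tankyrase inhibition (TNKSi), and the colon line RKO as its insensitive control. Each line gave 2 libraries with DMSO and 2 with G007-LK, labelled as biological replicates, 20 libraries of poly(A) RNA in all. With 2 libraries a group, the p-values of limma, the test used, set a change against the spread between replicate libraries. Within a line that spread came mostly from all genes and less from the gene's own libraries. All 33 members were found among the 21201 gene symbols of the expression table. Of these, 29 matched by their exact symbol, while the 4 HLA genes HLA-B, HLA-C, HLA-E and HLA-F stand in the table with the letters NA in place of their hyphen and were matched after the hyphen was put back. The members are 16 antiviral effectors, 3 guanylate-binding GTPases, 1 sensor with 4 transcription factors, and 9 genes of antigen presentation. In bulk RNA, fewer cells that express a gene and less RNA of that gene per cell cannot be told apart.

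Interferons bind receptors on the cell surface and switch on the Janus kinases, which phosphorylate transcription factors such as STAT2. STAT2 and IRF9 act in a complex that binds the interferon-stimulated response element (ISRE), the response to interferon gamma also uses the gamma-activated site (GAS), and many genes next to these elements make antiviral effectors. Genes of antigen presentation also respond to this input. TAP1 and TAP2 pump peptides into the endoplasmic reticulum, and TAPBP (tapasin) helps to load them. HLA class I chains with B2M show the peptides to T cells. Tumor lines differ widely in how active this program is without any added interferon.

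The promoters of the members carry the letters that this pathway reads. RefSeq windows of 300 bases around gene starts (GRCh38.p14, 250 bases before to 50 after) were given for 26 of the 33 members, and no window was given for GBP2 or IFITM2, whose values are described below. The ISRE was searched as GAAANNGAAA and the GAS as TTCNNNGAA, on both strands, and the motifs may overlap. An ISRE match was found in 19 of 26 members (73.1%), against 3.65% of 27305 promoter windows, and a GAS match in 8 of 26 (30.8%), against 7.88%. The ISRE was found in 11 of 13 effectors, in GBP1 and GBP3, in 5 of 7 antigen presentation genes, and in IFIH1 alone among the 4 sensor and factor genes with a window. A match is a description of letters and not a measured binding site. The 6 promoters below are shown because their genes carry the responses named later, each as the 250 bases before the start on the strand of the gene, with ISRE and GAS matches in capitals. They are IFI27 at chr14:94110486-94110735 (plus strand), IFI35 at chr17:43006534-43006783 (plus strand), IRF9 at chr14:24161015-24161264 (plus strand), STAT2 at chr12:56360108-56360357 (minus strand), IFITM3 at chr11:320861-321110 (minus strand) and TAP2 at chr6:32838740-32838989 (minus strand). IFI27 and IFI35 are effectors that rose in 2 lines each, IRF9 and STAT2 encode factors that rose, IFITM3 moved up in 1 line and down in another, and TAP2 fell in 3 lines. IFI27 holds 2 ISRE matches that overlap a GAS match, IFI35 and IRF9 hold a GAS match, STAT2 holds neither motif in its window, IFITM3 holds 2 ISRE matches, and TAP2 holds 1, which begins 58 bases before the start.
IFI27: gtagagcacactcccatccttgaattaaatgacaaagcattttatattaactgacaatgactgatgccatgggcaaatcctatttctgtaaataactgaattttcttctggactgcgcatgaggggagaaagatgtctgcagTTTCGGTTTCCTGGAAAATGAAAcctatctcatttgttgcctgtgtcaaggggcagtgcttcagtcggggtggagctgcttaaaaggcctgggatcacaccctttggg
IFI35: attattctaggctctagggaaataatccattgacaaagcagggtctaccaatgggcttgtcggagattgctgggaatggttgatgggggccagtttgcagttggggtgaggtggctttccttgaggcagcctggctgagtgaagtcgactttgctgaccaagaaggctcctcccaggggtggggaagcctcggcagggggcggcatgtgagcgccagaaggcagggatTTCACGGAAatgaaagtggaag
IRF9: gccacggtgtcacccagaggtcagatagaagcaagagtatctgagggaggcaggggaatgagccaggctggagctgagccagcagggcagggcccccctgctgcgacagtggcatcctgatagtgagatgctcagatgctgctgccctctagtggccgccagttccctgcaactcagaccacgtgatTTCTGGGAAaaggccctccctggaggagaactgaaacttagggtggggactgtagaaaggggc
STAT2: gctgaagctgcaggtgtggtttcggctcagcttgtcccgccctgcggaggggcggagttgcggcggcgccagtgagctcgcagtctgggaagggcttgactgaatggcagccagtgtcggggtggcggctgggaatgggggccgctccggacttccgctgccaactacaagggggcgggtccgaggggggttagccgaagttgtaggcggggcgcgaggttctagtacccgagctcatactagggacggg
IFITM3: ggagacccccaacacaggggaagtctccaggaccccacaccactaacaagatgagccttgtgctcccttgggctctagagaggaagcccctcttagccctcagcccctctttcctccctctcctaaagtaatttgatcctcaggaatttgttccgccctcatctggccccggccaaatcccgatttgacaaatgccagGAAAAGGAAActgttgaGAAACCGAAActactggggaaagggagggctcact
TAP2: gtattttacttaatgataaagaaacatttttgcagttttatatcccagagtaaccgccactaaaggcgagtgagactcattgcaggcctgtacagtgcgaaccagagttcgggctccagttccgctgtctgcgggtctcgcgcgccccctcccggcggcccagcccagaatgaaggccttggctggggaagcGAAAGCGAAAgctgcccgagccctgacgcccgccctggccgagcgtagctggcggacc

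Expression is given as RPKM, which divides the reads of a gene by its length and by the mapped reads of the library, so that levels can be set side by side between genes. The deposited table holds no read counts, and the depth is unknown. Judged by the spacing of low values, relative depth within a line ran from 0.856 to 1.11 (first DMSO library set to 1). Summed over all genes, a library held between 367196 and 909187 RPKM. Markers of the labelled tissues were found in part, at a mean of at least 1 RPKM. These were CDX2 and CDH17 in COLO 320DM, PAX2 and PAX8 in UO-31, PAX8, MUC16 and MSLN in OVCAR-4, and NKX2-1 in ABC-1. Of 4 colon markers only CDX2 reached that level in RKO. MSLN also reached it in UO-31 and ABC-1, and the colon marker VIL1 in OVCAR-4. The 3 kidney markers summed to 82.3 and 82.5 RPKM with DMSO in OVCAR-4, with PAX8 and LHX1 at that level. This was above the 71.4 and 73.4 RPKM of UO-31. The 4 ovarian markers summed to 134 and 135 RPKM with DMSO in ABC-1, above the 92.9 and 95 of OVCAR-4. Of the endothelial markers, PECAM1, CDH5 and VWF reached it with DMSO in OVCAR-4, and CDH5 in UO-31. The 6 leukocyte markers summed to at most 4.97 RPKM in any library, with PTPRC above 1 in COLO 320DM, ITGAM in UO-31 and CD14 in the DMSO libraries of OVCAR-4. Their sum moved with treatment in 3 lines, with 3.32 and 4.33 RPKM with DMSO against 4.59 and 4.97 with G007-LK in COLO 320DM, 1.64 and 1.8 against 2.41 and 3.27 in UO-31, and 1.69 and 2.19 against 1.32 and 1.42 in OVCAR-4. It was at most 0.108 RPKM in ABC-1 and RKO. Among the other marker lists, the 4 epithelial markers summed to 2870 and 3100 RPKM with DMSO against 2090 and 2280 with G007-LK in UO-31, the colon markers to 736 and 768 against 521 and 527 in COLO 320DM, and the 3 lung markers to 4.25 and 4.43 against 2.05 and 2.17 in ABC-1. The ovarian markers went the other way, from 134 and 135 to 176 and 177 RPKM in ABC-1 and from 92.9 and 95 to 105 and 108 in OVCAR-4. The part of these markers in the results below was not tested. Of 8 interferon ligands looked for, the 6 in the table were at or near 0. IFNA1, IFNB1, IFNK, IFNL1 and IFNL3 reached at most 0.0774 RPKM in any library. IFNE reached 1.06 RPKM in 1 UO-31 library with G007-LK. IFNG and IFNL2 are not in the table, and no IFNA gene other than IFNA1 was looked for. The targets of the inhibitor were present in all lines, with DMSO means of 3.31 (ABC-1) to 5.4 RPKM (UO-31) for TNKS and 7.33 (COLO 320DM) to 23 RPKM (OVCAR-4) for TNKS2. G007-LK acts on the protein, so these RNA levels do not check the labels.

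Without inhibitor, the lines differed widely in the level of the members (heat map of levels with DMSO). The study grew ABC-1 and RKO in EMEM medium, and COLO 320DM, UO-31 and OVCAR-4 in RPMI medium. Between these sets of lines, medium and line cannot be told apart. UO-31 and OVCAR-4 had much of the program on. COLO 320DM and ABC-1 had most antiviral effectors and GTPases at low levels, and RKO stood between, with high BST2, IFITM2 and IFI27 and almost no GBP1 or GBP2. For the test, each line was compared with the mean of the other 4 in the DMSO libraries with limma on log2(RPKM + 0.5), and a gene was called at an adjusted p under 0.05 and a difference of at least 1 log2 unit, with 32 members tested. Because OVCAR-4 stood 0.85 log2 units above the others at the median of all genes, each count is also given after the libraries were rescaled by their median ratio.

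**Figure D1:**
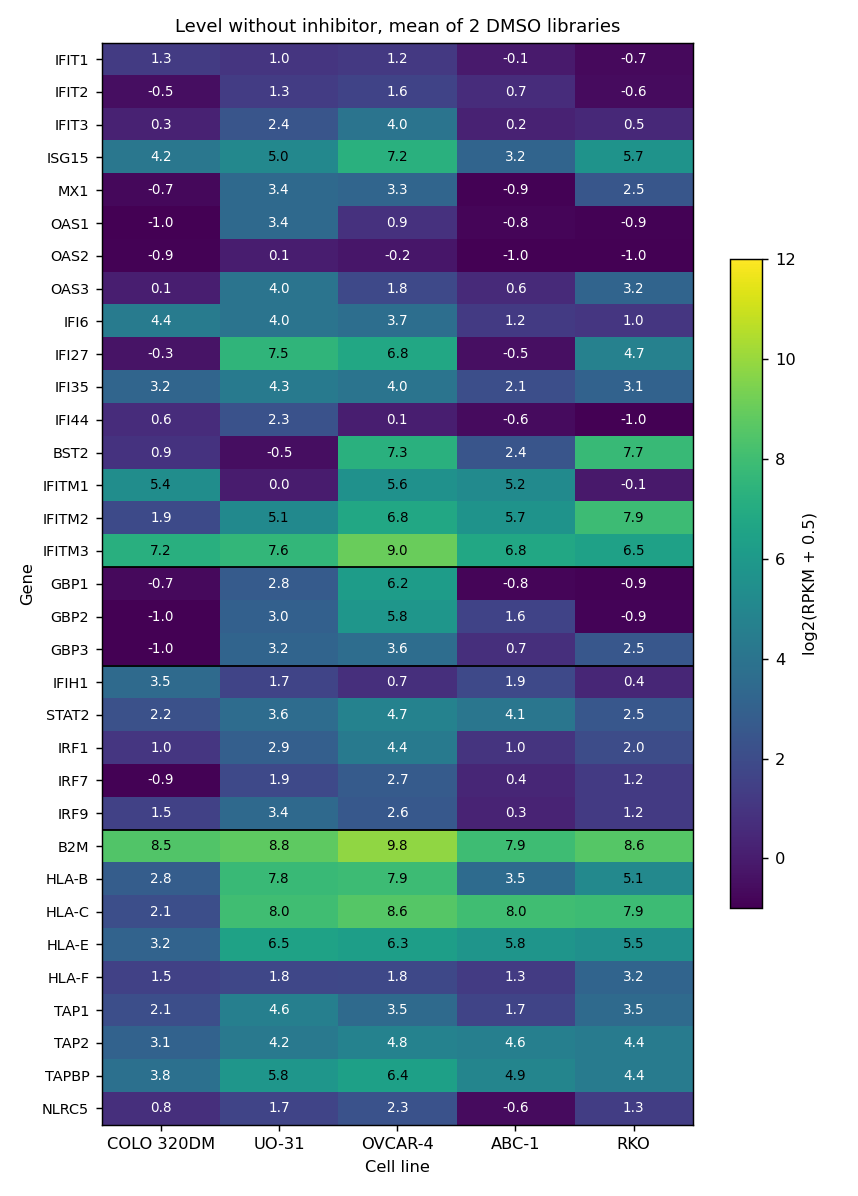
Heat map of the mean level of the 33 members in the 2 DMSO libraries of each line, as log2(RPKM + 0.5), with members in rows by role (black lines part effectors, GTPases, sensor and factors, and antigen presentation) and lines in columns. IFI27 is brightest in UO-31, GBP1 and GBP2 in OVCAR-4, and COLO 320DM is darker than the other lines for HLA-C.

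In UO-31, 18 of 32 members were higher (16.9% of all genes) and 2 lower (11.5%), and 19 and 2 on rescaled values (18.3% and 9.71% of all genes). The members furthest above the other lines there were IFI27 with 189 and 176 RPKM (4.85 log2 units), OAS1 with 10.4 and 10.2 RPKM (3.91 log2 units), HLA-B with 234 and 219 RPKM (2.97 log2 units) and OAS3 with 15.9 and 14.6 RPKM (2.56 log2 units). IFI27 is a small mitochondrial protein, and OAS1 and OAS3 make the oligoadenylate signal that turns on RNase L. BST2, which tethers budding viruses to the membrane, was the lowest member in UO-31, at 0.187 and 0.232 RPKM (-5.08 log2 units), followed by IFITM1 at 0.628 and 0.374 RPKM (-4.03 log2 units).

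In OVCAR-4, 22 of 32 members were higher (43.8% of all genes) and 1 lower (4.04%), and 14 and 1 on rescaled values (16.7% and 10.8% of all genes). GBP1 reached 70.2 and 71.9 RPKM (6.07 log2 units above the others, 5.28 rescaled), GBP2 54 and 58.8 RPKM (5.15, rescaled 4.33), BST2 158 and 148 RPKM (4.61, rescaled 3.7) and IFI27 105 and 113 RPKM (3.92, rescaled 3.05). Guanylate-binding proteins coat vacuoles that hold pathogens. IFIH1, the sensor of long double-stranded RNA also called MDA5, was the 1 lower member, with 1.17 and 1.14 RPKM (-1.13, rescaled -1.76).

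COLO 320DM had 3 of 32 members higher (10.7% of all genes) and 21 lower (21.9%), and 4 and 19 on rescaled values (14% and 17.3% of all genes). HLA-C stood at 3.31 and 4.37 RPKM there (-6.02 log2 units) while the other 4 lines ranged from 241 to 387 RPKM with DMSO. HLA-B had 6.68 and 6.59 RPKM (-3.27 log2 units), and IFI27, IFITM2 and GBP3 were also among the lowest (-4.93, -4.48 and -3.52 log2 units). Reads were aligned to 1 reference allele with few mismatches allowed, so between lines a low HLA level and a poor match of the line's alleles cannot be told apart. The members above the others were IFITM1 with 42.4 and 40.5 RPKM (2.72 log2 units), IFIH1 with 9.7 and 12 RPKM (2.34 log2 units) and IFI6 with 20.9 RPKM in both libraries (1.93 log2 units).

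In ABC-1, 2 of 32 members were higher (10.7% of all genes) and 17 lower (20.7%), and 3 and 17 on rescaled values (14.2% and 16% of all genes). IFITM1 was higher with 39 and 34.2 RPKM (2.5 log2 units), as was HLA-C with 250 and 263 RPKM (1.35 log2 units). IFI27, MX1, GBP1 and HLA-B were the lowest against the others, with differences of -5.16, -3.01, -2.67 and -2.4 log2 units, and MX1, a GTPase that blocks viral nucleocapsids, had 0.0352 and 0.0376 RPKM. In RKO, 7 of 32 members were higher (6.75% of all genes) and 12 lower (24.4%), and 9 and 9 on rescaled values (10.4% and 18.9% of all genes). BST2 had 217 and 212 RPKM in RKO (5.22 log2 units above the others), IFITM2 244 and 243 RPKM (3.04), HLA-F 8.78 and 8.43 RPKM (1.6) and OAS3 8.44 and 8.65 RPKM (1.56). IFITM1 (-4.14), GBP2 (-3.22), GBP1 (-2.77) and IFI6 (-2.3) were the lowest members of RKO. The IFITM genes are near copies of each other, as are HLA-B and HLA-C, and how reads shared between such copies were assigned is not stated.

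The first question was how the members changed with G007-LK in each line. A gene was tested in a line where its mean RPKM over the 4 libraries was at least 1, with limma on log2(RPKM + 0.5) and Benjamini-Hochberg adjustment over all genes of the line, two-sided, at an adjusted p under 0.05. The share of members higher with G007-LK was above that of all genes in OVCAR-4 and ABC-1 and near it in COLO 320DM and RKO (bar chart of called genes). In UO-31 the share on deposited values rested on 3 of 30 members (10%, against 4.79% of all genes), a count set by single libraries. In OVCAR-4, 22 of 31 members rose (12.6% of all genes) and 1 fell (39%), with a median log2 fold change of 0.32 over the members against -0.11 over all genes. In ABC-1, 7 of 20 rose (16.6% of all genes) and 5 fell (41.2%), with a median of 0.08 against -0.14. Since the median of all genes was below 0 in these lines, each count is also given after rescaling by the median ratio: 24 rose and 1 fell in OVCAR-4 (24.1% and 23% of all genes), and 11 rose and 5 fell in ABC-1 (31.4% and 32.4% of all genes).

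In UO-31, 3 of 30 members rose (4.79% of all genes) and 1 fell (8.63%) on the deposited values. After rescaling, 15 rose and 1 fell (14.6% and 15.5% of all genes), with a median of 0.32 over the members. Between both G007-LK libraries of UO-31 the median difference over all genes was -0.285 log2 units. Single libraries set the UO-31 count. It grew when either G007-LK library was left out and shrank when either DMSO library was. The share of all genes called in these runs was not taken, so they do not set the members apart from other genes. In COLO 320DM, 2 of 22 members rose (7.7% of all genes) and 2 fell (11.6%), and 3 rose and 3 fell after rescaling (18.4% and 20.2% of all genes). Leaving out either G007-LK library lowered the COLO 320DM count, again without a share of all genes taken. In RKO, none of 23 members passed limma's test (1.36% of all genes were higher and 2.75% lower), and none after rescaling (1.65% and 1.06% of all genes). At an unadjusted p under 0.05, limma found 4 members higher and 1 lower in RKO, and the NOISeq rule recomputed from the RPKM found 0. The share of all genes past either of these was not taken.

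**Figure D2:**
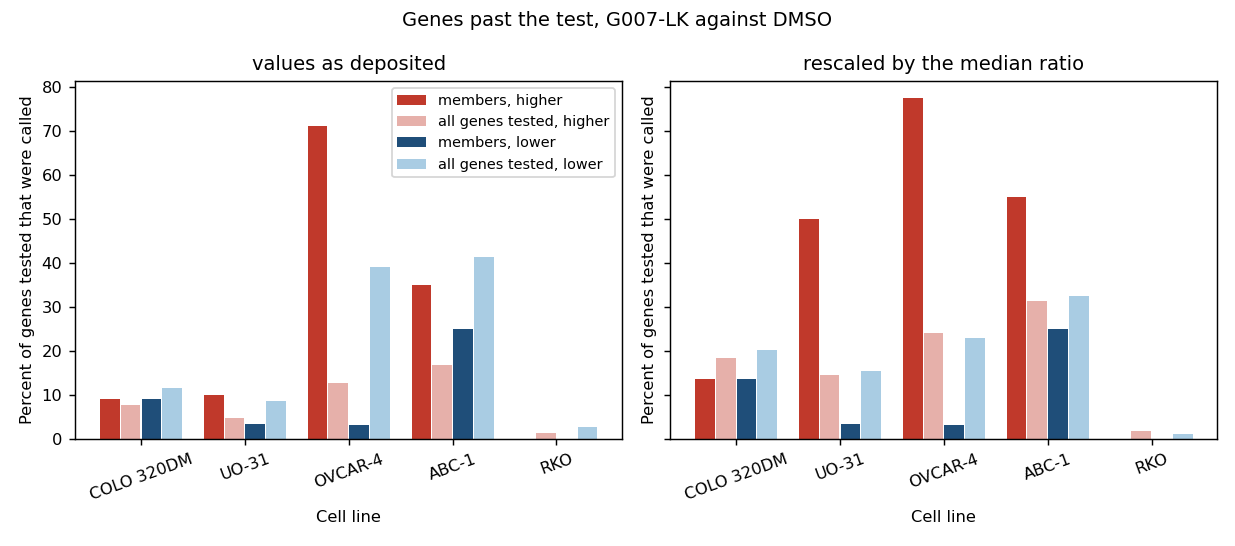
Percent of the genes tested in each line that passed the test, higher (red) or lower (blue) with G007-LK, for the members (dark bars) and for all genes tested (light bars), on values as deposited (left) and rescaled by the median ratio (right). The dark red bar of OVCAR-4 stands well above its light one in both panels, that of UO-31 mainly in the right panel, and RKO has no bar for the members.

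Across the 5 lines there were 43 calls, 34 higher and 9 lower, on 25 of the 33 members. The NOISeq rule recomputed from the RPKM kept 7 of these 43 and lost 36, which is not repeated for each gene below. OAS2 was under the filter in all lines, and 7 members were tested and called in none: IFIT2, IFIT3, MX1, OAS3, IFI44, IRF7 and TAP1. The heat map of responses gives each member in each line.

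**Figure D3:**
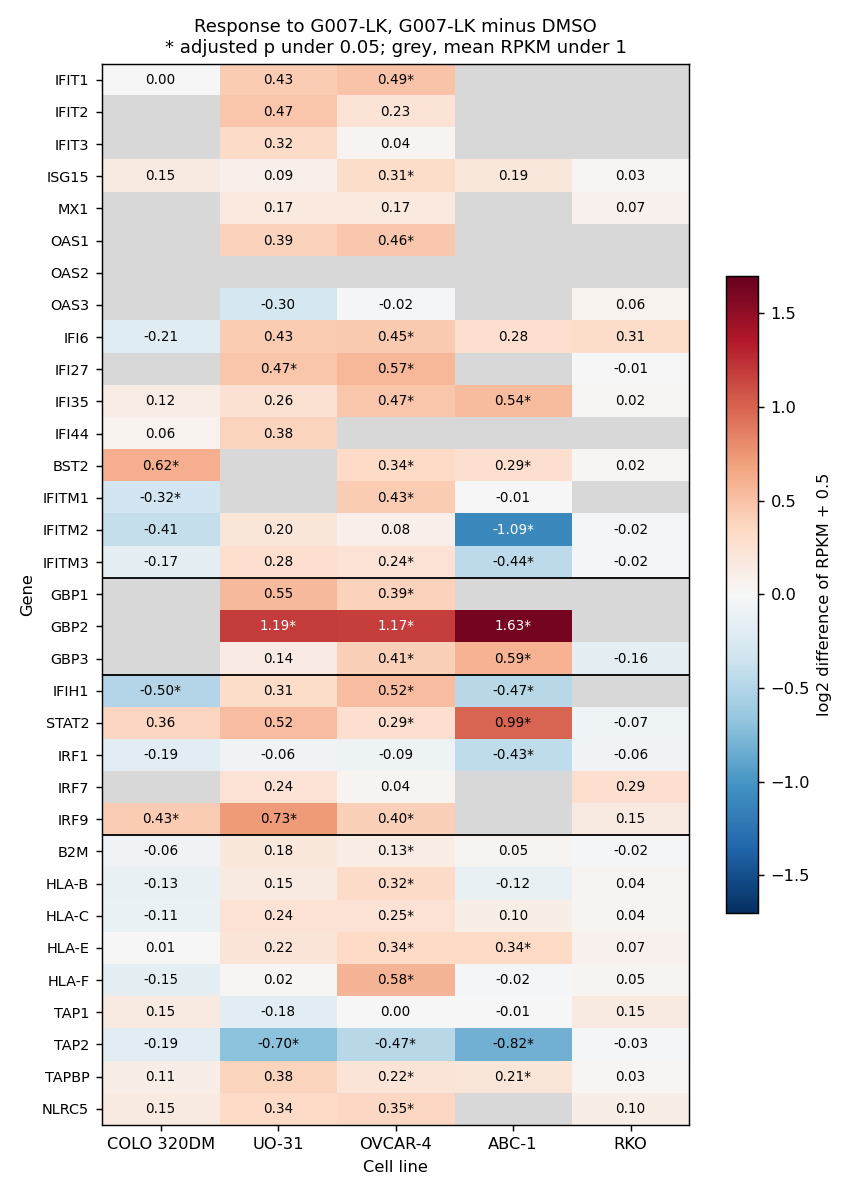
Heat map of the response of each member to G007-LK in each line, as the log2 difference of RPKM + 0.5 between G007-LK and DMSO, with rows by role as above, stars for an adjusted p under 0.05 (limma) and grey where the mean RPKM was under 1. GBP2 is the darkest red in the 3 lines where it was tested, TAP2 is blue with a star in the same lines, and RKO has no star.

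Among the guanylate-binding GTPases, GBP2 (GRCh37 chromosome 1, 89571815 to 89616139) rose in each of the 3 lines where it was tested. In OVCAR-4 it had 54 and 58.8 RPKM with DMSO and 127 and 128 RPKM with G007-LK, a 2.26-fold change (log2 1.17, SE 0.0464, adjusted p = 5.1e-09). In ABC-1 it went from 2.64 and 2.41 to 9.65 and 8.08 RPKM, a 3.09-fold change (log2 1.63, SE 0.122, adjusted p = 7.3e-39), and in UO-31 from 6.99 and 7.69 to 18.4 and 16.4 RPKM, a 2.28-fold change (log2 1.19, SE 0.202, adjusted p = 3.6e-07). The groups did not overlap in any of the 3 lines, where between 21.2% and 24.9% of all genes had both G007-LK libraries above both DMSO libraries. In COLO 320DM and RKO GBP2 had at most 0.0689 RPKM in any library and was not tested. The UO-31 call was lost without DMSO replicate 1 (log2 1.13, adjusted p = 0.367) or DMSO replicate 2 (log2 1.25, adjusted p = 0.242). In UO-31 and ABC-1 limma gave all weight to the spread shared by all genes, so p-values as small as that of GBP2 in ABC-1 do not rest on the gene's own replicates.

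GBP3 rose in ABC-1, from 1.07 and 1.26 to 2 and 2.02 RPKM (log2 0.59, adjusted p = 3.4e-05), and in OVCAR-4, from 10.8 and 12.9 to 15.5 and 16.3 RPKM (log2 0.41, adjusted p = 0.00106). It did not pass in UO-31 (log2 0.14, adjusted p = 0.761), where its libraries overlap, or in RKO (log2 -0.16, adjusted p = 0.177). GBP1 rose in OVCAR-4 (log2 0.39, adjusted p = 1.1e-05) and had 6.04 and 6.47 RPKM with DMSO against 10.4 and 8.48 RPKM with G007-LK in UO-31 (log2 0.55, adjusted p = 0.0691, and 0.00329 on rescaled values). The 3 genes lie side by side on chromosome 1 and are similar in sequence, so reads may be shared between them.

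The factors STAT2 and IRF9, partners in the complex that binds the ISRE, were called higher where they were called. STAT2 (chromosome 12, 56735381 to 56753987) rose in ABC-1 from 15.2 and 18.2 to 35.5 and 31.6 RPKM, a 1.99-fold change (log2 0.99, SE 0.0888, adjusted p = 1.6e-27), and in OVCAR-4 from 26.6 and 25.8 to 32.5 and 31.8 RPKM (log2 0.29, adjusted p = 4.8e-04, and 0.0598 in 1 fit over 20 libraries). In UO-31 it had 12.1 and 11.1 RPKM with DMSO and 18.6 and 15.1 RPKM with G007-LK (log2 0.52, adjusted p = 0.0564, and 0.00239 on rescaled values). In COLO 320DM the values were 3.91 and 4.29 against 5.61 and 5.24 RPKM (log2 0.36, adjusted p = 0.0877, and 0.0064 on rescaled values). So on rescaled values STAT2 passed in each of the 4 sensitive lines, and in RKO it stayed at 4.91 to 5.23 RPKM (log2 -0.07, adjusted p = 0.501).

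IRF9 (chromosome 14, 24630443 to 24637252) rose in UO-31 from 10.3 and 10.1 to 18.8 and 15.7 RPKM, a 1.65-fold change (log2 0.73, SE 0.196, adjusted p = 0.00341). It also rose in OVCAR-4, from 5.8 and 5.34 to 7.96 and 7.1 RPKM (log2 0.4, adjusted p = 0.00195), and in COLO 320DM, from 2.29 and 2.42 to 3.42 and 3.26 RPKM (log2 0.43, adjusted p = 0.0437). The COLO 320DM call was lost without either G007-LK library (log2 0.4 and 0.46), under the replicate block (adjusted p = 0.29) and with no filter (adjusted p = 0.0868). The UO-31 call was lost without either DMSO library (log2 0.74 and 0.71), with no filter (adjusted p = 0.0523) and under the crossed block (adjusted p = 0.112). ABC-1 held 0.683 and 0.73 RPKM with DMSO and 1.11 and 1.21 RPKM with G007-LK, under the filter and not tested. RKO held 1.79 and 1.83 against 1.81 and 2.36 RPKM (log2 0.15, adjusted p = 0.428).

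IRF1, the factor that carries much of the response to interferon gamma, went the other way in ABC-1, where it fell from 1.39 and 1.52 to 0.789 and 1.13 RPKM (log2 -0.43, adjusted p = 0.00345). That call was lost without G007-LK replicate 1 (log2 -0.26, adjusted p = 0.281). In the other lines IRF1 lay between -0.19 (COLO 320DM) and -0.06 (UO-31 and RKO) and did not pass. The sensor IFIH1 moved in opposite directions: it rose in OVCAR-4 from 1.17 and 1.14 to 1.88 and 1.84 RPKM (log2 0.52, adjusted p = 0.00701) and fell in ABC-1 from 2.94 and 3.39 to 2.15 and 2.14 RPKM (log2 -0.47, adjusted p = 7.9e-04). It also fell in COLO 320DM, the line with its highest level, from 9.7 and 12 to 7.88 and 7.07 RPKM (log2 -0.5, adjusted p = 0.0187), a call that was lost without either G007-LK library (adjusted p = 0.213 and 0.459), with no filter (0.0801) and under the replicate block (0.183). IRF7 passed in none of the 3 lines where it was tested.

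**Figure D4:**
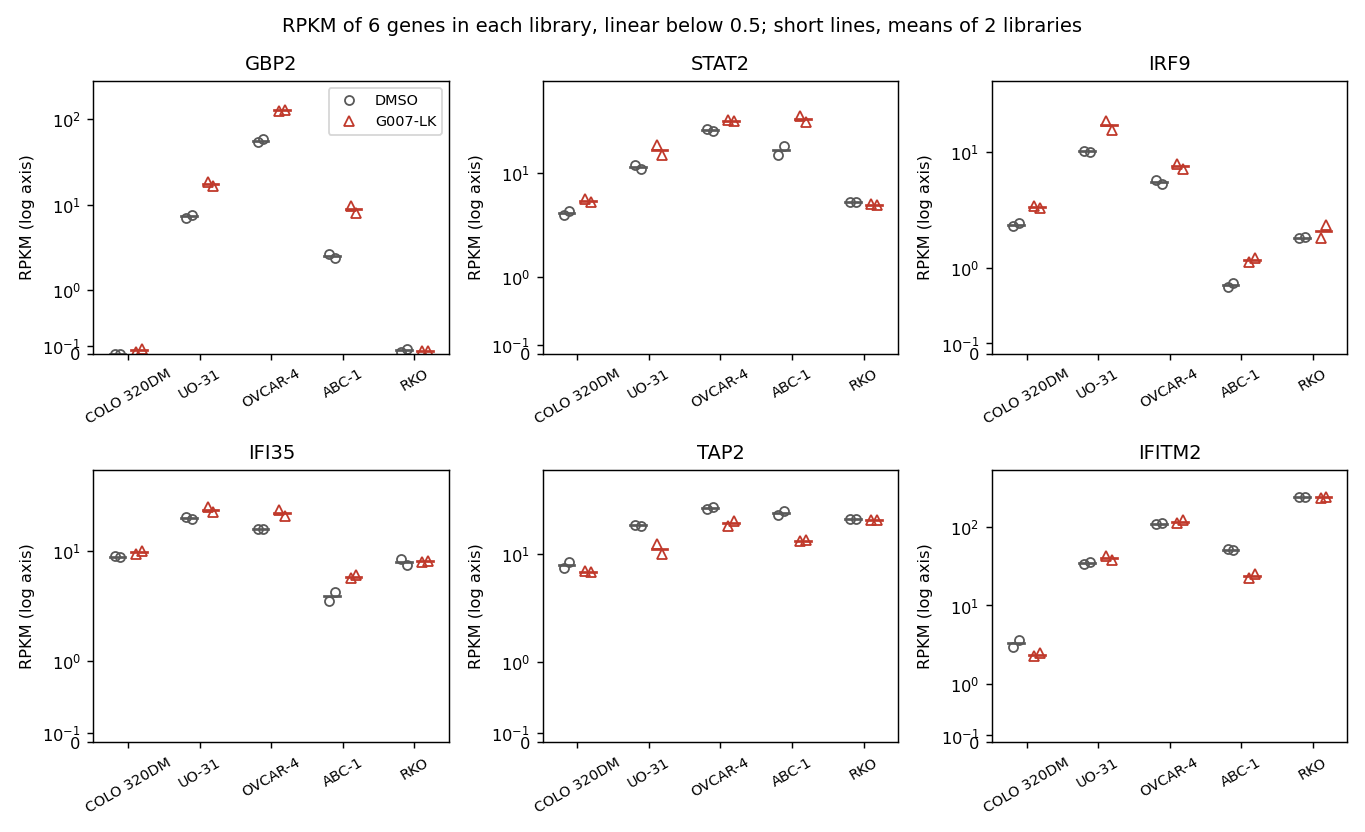
RPKM of GBP2, STAT2, IRF9, IFI35, TAP2 and IFITM2 in each of the 20 libraries, on a log axis that is linear below 0.5, with DMSO as grey circles, G007-LK as red triangles and the means of 2 libraries as short lines. In ABC-1, OVCAR-4 and UO-31 the triangles of GBP2 lie above the circles and those of TAP2 below them, and the IFITM2 triangles lie below the circles in COLO 320DM and ABC-1.

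Of the antiviral effectors, 9 of 14 tested rose in OVCAR-4 (12.6% of all genes) and none fell (39%). IFI27 rose there from 105 and 113 to 164 and 159 RPKM (log2 0.57, SE 0.0426, adjusted p = 8.2e-07, and 0.125 in 1 fit over 20 libraries), IFI35 from 15.8 and 15.6 to 23.4 and 20.8 RPKM (log2 0.47, adjusted p = 7.4e-05), and IFITM1 from 50.8 and 43.8 to 63.8 and 63.6 RPKM (log2 0.43, adjusted p = 2.5e-04). IFI6, an inhibitor of cell death, rose from 13.8 and 11.4 to 15.8 and 19.1 RPKM (log2 0.45, adjusted p = 0.00913), a call lost without DMSO replicate 2 (log2 0.33, adjusted p = 0.0538). The other effectors that rose in OVCAR-4 were IFIT1 (log2 0.49), OAS1 (0.46), BST2 (0.34, not called in 1 fit over 20 libraries, adjusted p = 0.1), the ubiquitin-like ISG15 (0.31) and IFITM3 (0.24). The OAS1 call was lost when DMSO replicate 1 (adjusted p = 0.0601) or the second G007-LK library (adjusted p = 0.0694) was left out. IFIT2, IFIT3, MX1, OAS3 and IFITM2 did not pass in OVCAR-4, with log2 fold changes between -0.02 and 0.23.

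In UO-31, IFI27 rose from 189 and 176 to 256 and 248 RPKM (log2 0.47, SE 0.109, adjusted p = 5.0e-04), the only effector called there on deposited values. On rescaled values 8 of 13 effectors rose (14.6% of all genes), namely IFI27, IFI6, IFIT1, IFIT2, IFIT3, OAS1, IFI35 and IFI44, with log2 fold changes of 0.31 to 0.51. The IFI27 call on deposited values was lost without either DMSO library (adjusted p = 0.589 and 0.969), in 1 fit over 20 libraries (0.191) and under the crossed block (0.0849), which was chosen after seeing the data. In ABC-1, IFI35 rose from 3.49 and 4.21 to 5.63 and 6 RPKM (log2 0.54, adjusted p = 2.9e-05) and BST2 from 5.33 and 4.48 to 5.57 and 6.67 RPKM (log2 0.29, adjusted p = 0.0277). The BST2 call was lost when DMSO replicate 2 (adjusted p = 0.248) or either G007-LK library (0.0647 and 0.505) was left out, with no filter (0.108), under the replicate block (0.149) and in 1 fit over 20 libraries (0.103). BST2 was also called higher in COLO 320DM, from 1.35 and 1.42 to 3.01 and 1.88 RPKM (log2 0.62, adjusted p = 0.0161), where the call was lost without G007-LK replicate 1 (log2 0.34, adjusted p = 0.585) and with no filter (adjusted p = 0.104).

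The IFITM genes, whose products block viral fusion with the cell membrane, moved apart between lines. In ABC-1, IFITM2 (chromosome 11, 303655 to 309397) fell from 52.3 and 50.2 to 22.2 and 25.5 RPKM, a change to 0.47 times the DMSO level (log2 -1.09, SE 0.082, adjusted p = 1.6e-38), and -0.94 on rescaled values. IFITM3 fell there from 115 and 109 to 81.8 and 82.8 RPKM (log2 -0.44, adjusted p = 2.9e-10), while IFITM1 had 39 and 34.2 against 35.4 and 36.9 RPKM (log2 -0.01, adjusted p = 0.896). In OVCAR-4, IFITM1 and IFITM3 rose, and IFITM2 did not pass on deposited values (log2 0.08, adjusted p = 0.135). In COLO 320DM, IFITM1 fell from 42.4 and 40.5 to 33.8 and 32.3 RPKM (log2 -0.32, adjusted p = 0.0286), lost without either G007-LK library (adjusted p = 0.348 and 0.529), with no filter (0.0733) and under the replicate block (0.288). In RKO, where IFITM2 is highest, it stayed between 236 and 244 RPKM.

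In antigen presentation, TAP2 was the 1 member that fell, and it did so in 3 lines. TAP2 (chromosome 6, 32789610 to 32806516) went from 22.9 and 24.9 to 13.2 and 13.3 RPKM in ABC-1, a change to 0.565 times the DMSO level (log2 -0.82, SE 0.0945, adjusted p = 3.3e-17). It fell from 18.5 and 18.2 to 12.3 and 9.93 RPKM in UO-31 (log2 -0.7, SE 0.193, adjusted p = 0.00403) and from 26.2 and 27.3 to 18 and 20.3 RPKM in OVCAR-4 (log2 -0.47, SE 0.0644, adjusted p = 8.0e-05). Both G007-LK libraries lay below both DMSO libraries in each of the 3 lines, as they did for 30.3% to 54.6% of all genes. After rescaling the log2 fold changes were -0.67, -0.66 and -0.36. The UO-31 call was lost without either DMSO library (log2 -0.69 and -0.72), with no filter (adjusted p = 0.0585) and under the crossed block (adjusted p = 0.122). COLO 320DM held 7.42 and 8.45 against 6.88 and 6.85 RPKM (log2 -0.19, adjusted p = 0.369), and RKO stayed between 20.6 and 21.1 RPKM.

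TAP1, the other chain of the peptide transporter, passed in none of the lines, with log2 fold changes of -0.18 (UO-31) to 0.15 (COLO 320DM and RKO). In OVCAR-4, TAP1 had 10.6 and 10.9 against 10.3 and 11.2 RPKM. The difference between the responses of TAP1 and TAP2 was not tested. The HLA genes rose in OVCAR-4: HLA-E, the ligand of NKG2A on natural killer cells, went from 78.5 and 75.8 to 96.5 and 98.6 RPKM (log2 0.34, adjusted p = 3.2e-05), HLA-B from 244 and 245 to 295 and 315 RPKM (log2 0.32, adjusted p = 2.7e-05), and HLA-C from 371 and 387 to 436 and 467 RPKM (log2 0.25, adjusted p = 2.2e-04). HLA-F rose as well (log2 0.58, adjusted p = 0.00724), as did NLRC5, the factor that turns on HLA class I genes (log2 0.35), TAPBP (0.22) and B2M (0.13). The HLA-F call was lost without DMSO replicate 2 (adjusted p = 0.0627) and that of B2M without DMSO replicate 1 (0.0623) and in 1 fit over 20 libraries (0.125).

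In ABC-1, HLA-E rose from 53.5 and 55.5 to 69.5 and 68.7 RPKM (log2 0.34, adjusted p = 1.2e-05). TAPBP rose there from 31 and 29.4 to 35 and 35.2 RPKM (log2 0.21, adjusted p = 0.0203), a call lost when DMSO replicate 2 (adjusted p = 0.0593) or either G007-LK library (0.214 and 0.249) was left out and under the replicate block (0.127). HLA-B (10.7 and 11.3 against 10 and 10.1 RPKM), HLA-C, HLA-F, B2M and TAP1 did not pass in ABC-1 on deposited values, and HLA-C (log2 0.26) and B2M (0.2) passed on rescaled ones. In UO-31 none of the HLA members passed on deposited values, with log2 fold changes from 0.02 (HLA-F) to 0.24 (HLA-C). In COLO 320DM, the 9 antigen presentation members lay between -0.19 and 0.15 and none passed.

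A fit over the 4 sensitive lines, which kept each line's own level, held the 16 members that passed the filter in each of them. STAT2 (log2 0.54, SE 0.0884, adjusted p = 1.5e-04), IFI35 (0.35, adjusted p = 5.0e-04), HLA-E (0.23, adjusted p = 0.00247), TAPBP (0.23, adjusted p = 8.6e-04) and ISG15 (0.18, adjusted p = 0.0063) rose, 5 of 16 (10.2% of all genes). TAP2 (-0.55, SE 0.0805, adjusted p = 6.5e-05) and IRF1 (-0.19, adjusted p = 0.0345) fell, 2 of 16 (33.8% of all genes). On rescaled values 9 rose and 1 fell (26.6% and 24.1% of all genes), the 4 further ones being IFI6, HLA-C, B2M and HLA-B, and the IRF1 call was lost (log2 -0.1, adjusted p = 0.218). ISG15 no longer passed without the line OVCAR-4 (log2 0.14, adjusted p = 0.0847), and IRF1 no longer passed without COLO 320DM (adjusted p = 0.0828), OVCAR-4 (0.0591) or ABC-1 (0.236), under the replicate block (0.0674), with no filter (0.0512), or without any 1 of 6 single libraries (0.0534 to 0.0831). The crossed block also lost the IRF1 call (adjusted p = 0.0722). GBP2 and IRF9 were not part of this fit, since they were under the filter in at least 1 line.

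Whether a response differed from that of the insensitive line was tested as the interaction of treatment and line over the 8 libraries of each line and RKO. The 4 comparisons share the libraries of RKO. Of the sensitive lines, only ABC-1 was grown in the same medium as RKO. Against RKO, 18 of 30 OVCAR-4 members responded more than in RKO (7.8% of all genes) and 1 less (27.6%). ABC-1 had 5 of 26 higher (12.8% of all genes) and 4 lower (34%). UO-31 had 2 of 31 higher (2.14%) and 1 lower (4.02%), and COLO 320DM had 0 of 26 higher (4.57%) and 1 lower (7.05%). At an unadjusted p under 0.05, limma found 2 members higher and 4 lower in COLO 320DM, with no share of all genes taken at that p. On rescaled values 2 were called higher and 3 lower there (12.6% and 15.6% of all genes). Rescaling gave 10 higher and 1 lower for UO-31 (10.7% and 12% of all genes), 20 higher and 1 lower for OVCAR-4 (14.5% and 13.2%), and 10 higher and 4 lower for ABC-1 (27.6% and 24.4%). Some members were under a mean of 1 RPKM in RKO and entered these comparisons through the other line, so that their difference largely restates the change within that line. Among the calls these were GBP2 in all 3 lines, IFIH1 in ABC-1, and GBP1, IFIT1, IFITM1 and IFIH1 in OVCAR-4. With only the genes at a mean of at least 1 RPKM in both lines, a restriction chosen after seeing the data, 13 of 23 members were higher in OVCAR-4 (6.53% of all such genes) and 1 lower (30%). The same restriction left 4 of 17 higher (11.2%) and 3 lower (37%) in ABC-1, and 1 of 22 higher (1.15%) and 1 lower (4.44%) in UO-31, or 5 higher (8.31%) and 1 lower (13.1%) there on rescaled values.

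TAP2 fell below the response of RKO by 0.79 log2 units in ABC-1 (adjusted p = 6.7e-06), by 0.67 in UO-31 (adjusted p = 0.0361) and, for OVCAR-4, by 0.44 (adjusted p = 0.00234). STAT2 differed from RKO by 1.06 log2 units in ABC-1 (adjusted p = 1.3e-05) and 0.36 in OVCAR-4 (adjusted p = 0.0021), against 0.59 in UO-31 (adjusted p = 0.0879) and 0.43 in COLO 320DM (adjusted p = 0.0509), which did not pass. In COLO 320DM, IFI6 was the 1 member that differed (-0.52, adjusted p = 0.0185), with 20.9 RPKM in both DMSO libraries and 17.7 and 18.2 RPKM with G007-LK, while RKO had 1.59 and 1.5 against 2.02 and 2.04 RPKM. IFI6 passed within neither line on its own, and its difference was lost under the replicate block (adjusted p = 0.143) and without any 1 of 6 libraries (0.0581 to 0.11). In UO-31, the differences of TAP2 and IFI27 were lost when either UO-31 DMSO library or any RKO library was left out (adjusted p = 0.176 to 0.187 for TAP2 and 0.0919 to 0.156 for IFI27), and that of TAP2 with no filter (0.0653). In OVCAR-4, the difference of HLA-F was lost without any 1 of 6 libraries (log2 0.31 to 0.59). It was also lost with no filter (adjusted p = 0.111), at a pseudocount of 0.1 (0.0616) and under the crossed block (0.0796). That of IFIH1, which is under the filter in RKO, was lost without RKO DMSO replicate 1 (log2 0.39) or RKO G007-LK replicate 1 (log2 0.4). The UO-31 and COLO 320DM counts against RKO also depended on single libraries, and the share of all genes without them was not taken.

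**Figure D5:**
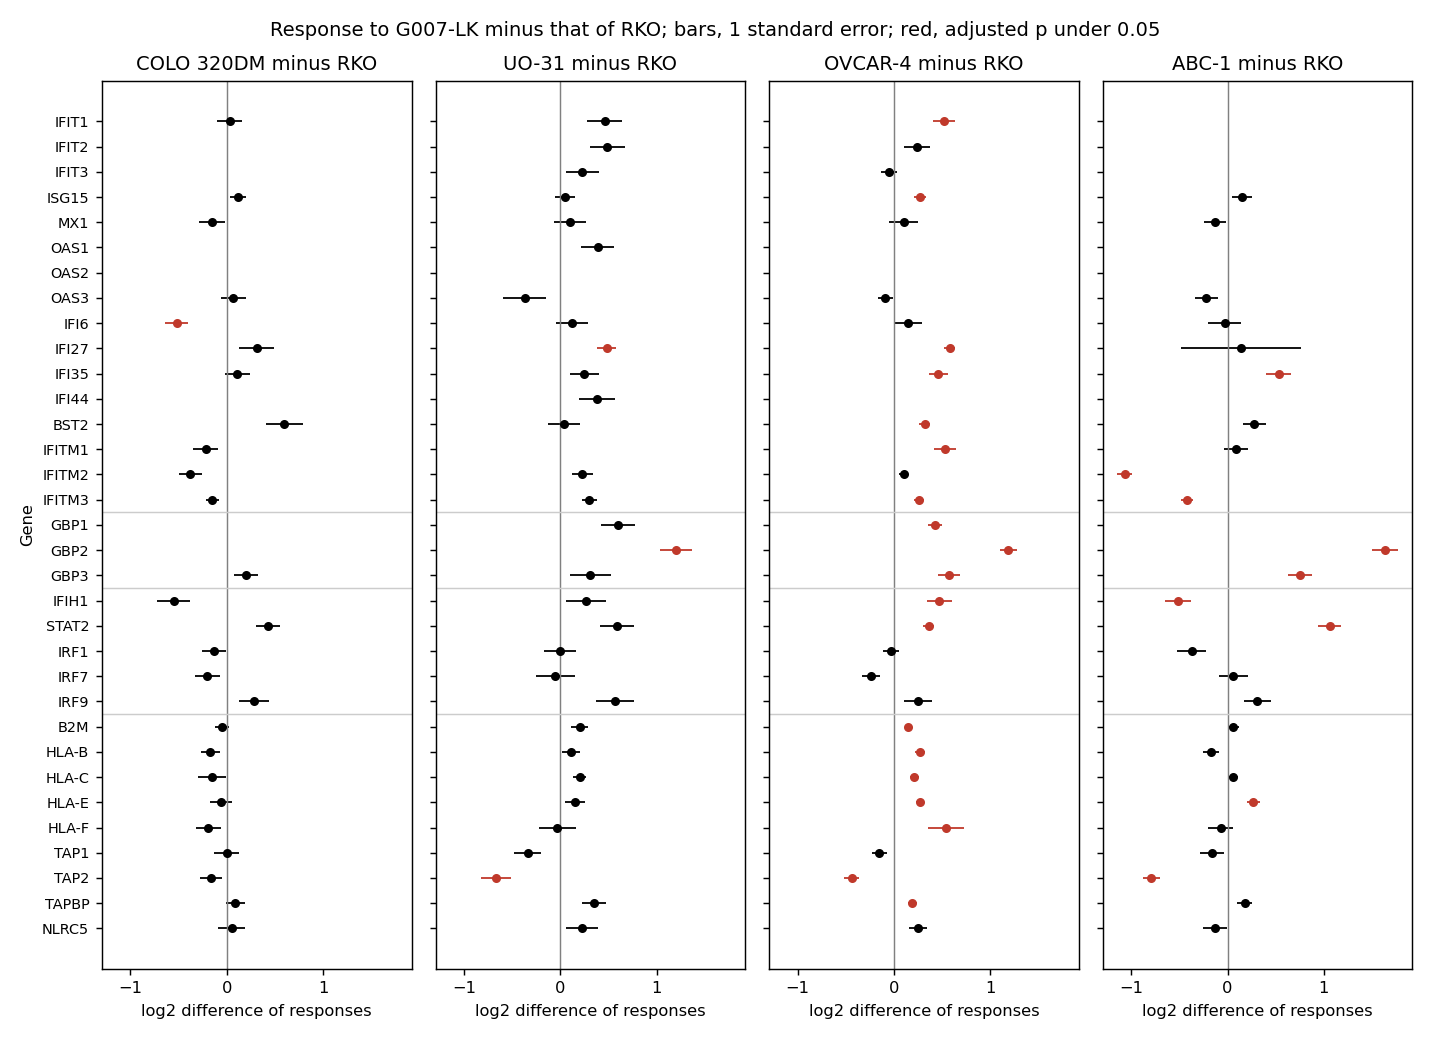
Response of each member to G007-LK in a sensitive line minus its response in RKO, as a difference of log2 fold changes, with bars of 1 standard error and red for an adjusted p under 0.05 (limma); members not tested have no point. OVCAR-4 has most of its points in red and to the right of 0, with TAP2 to the left, and ABC-1 has STAT2 and GBP3 far to the right and IFITM2 and TAP2 far to the left; GBP2, the point furthest right in 3 panels, was near 0 RPKM in RKO.

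The other genes of the pathway were taken from a list of 87 names, of which 85 are in the table. Between 45 (COLO 320DM) and 67 (OVCAR-4) of them were tested in a line. OVCAR-4 had 20 that rose (29.9%, against 12.6% of all genes) and 16 that fell (23.9%, against 39%), and 33 and 7 on rescaled values (24.1% and 23% of all genes). ABC-1 had 14 that rose (26.9%, against 16.6%) and 13 that fell (25%, against 41.2%), and 21 and 8 rescaled (31.4% and 32.4% of all genes). UO-31 had 8 that rose (12.3%, against 4.79%) and none that fell (8.63% of all genes), and 19 and 0 rescaled (14.6% and 15.5% of all genes). COLO 320DM had 1 that rose (2.22%, against 7.7%) and 3 that fell (6.67%, against 11.6%), and 10 and 7 rescaled (18.4% and 20.2% of all genes), and RKO had 1 that rose with either scaling (1.85%, against 1.36% of all genes). The median log2 fold change of the tested genes was 0.02 in OVCAR-4 and -0.02 in ABC-1, nearer to all genes than that of the members. None of the 6 ligands in the table passed the filter in any line.

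In UO-31, UBA7, the enzyme that starts the attachment of ISG15, rose from 10.8 and 10.6 to 22.1 and 20 RPKM (log2 0.94, adjusted p = 3.5e-05), as did CD74, the chaperone of HLA class II, from a DMSO level of 71.5 and 66.7 RPKM (log2 0.63, adjusted p = 7.6e-05). In OVCAR-4, GBP5 rose from 7.78 and 7.42 to 13.6 and 13.7 RPKM (log2 0.8, adjusted p = 2.0e-06) and TMEM173, the adaptor STING, from 256 and 258 to 341 and 352 RPKM (log2 0.43, adjusted p = 1.1e-06), while EIF2AK2, the kinase PKR, fell from 21 and 20.9 to 14.2 and 14.3 RPKM (log2 -0.54, adjusted p = 1.0e-05). TMEM173 was also higher in COLO 320DM, with 12.9 and 14.4 against 18.9 and 17.2 RPKM (log2 0.39, adjusted p = 0.0346), and in ABC-1, with 12.8 and 13.6 against 15.8 and 15.9 RPKM (log2 0.26, adjusted p = 0.0187). In UO-31 it had 11 and 10.8 against 15.5 and 14.5 RPKM (log2 0.44, adjusted p = 0.126, and 0.00794 on rescaled values).

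In ABC-1, HERC6 (log2 0.63, adjusted p = 1.1e-06), the factor IRF2 (0.61, adjusted p = 1.6e-08) and RFX5, a factor of HLA promoters (0.55, adjusted p = 1.3e-06), rose, and PLSCR1 fell from 48.1 and 55.4 to 34.7 and 32.9 RPKM (log2 -0.6, adjusted p = 1.8e-13). In COLO 320DM the immunoproteasome subunit PSMB10 fell from 25.4 and 22.9 to 17.3 and 16.8 RPKM (log2 -0.49, adjusted p = 0.00581), as did the proteasome activator PSME2 (-0.32, adjusted p = 0.00996) and the chaperone CALR (-0.24, adjusted p = 0.0149). In RKO, the DNA sensor IFI16 was the 1 gene of this list that rose, from 115 and 116 to 131 and 132 RPKM (log2 0.18, adjusted p = 0.00177).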

How the data were processed

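Short reads of 20 poly(A) libraries were mapped by the authors against the hg19 gene set (SOAP2, at most 2 mismatches), who deposited RPKM values per gene and library. Their tool versions are not stated. Deposited comparison tables hold the authors' own log2 ratios and NOISeq probabilities and were not used. Values missing in the table were set to 0. Of 21610 entries, 8 without a symbol (at most 0.00134% of a library's RPKM) were left out, and 371 repeated symbols, whose entries did not conflict in any library, were merged. No column was left without a sample.

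log2(RPKM + 0.5) was fitted with R 4.3.3, limma 3.58.1 and statmod 1.5.0, using a variance trend and robust estimation, on the whole table, with Benjamini-Hochberg adjustment over all genes tested and a threshold of 0.05. Genes needed a mean RPKM of at least 1 over the line's 4 libraries, over the 8 libraries of a comparison with RKO, in each of the 4 lines (fit over the sensitive lines) or in at least 1 line (baseline). Fold changes on this scale understate those of low genes. With 2 residual degrees of freedom per line, the prior carries most of the weight. Rescaling divided each library by its median ratio to the geometric mean of the libraries fitted. The fits were tested on simulated data. The members and lists were chosen with earlier results of these data known. In each line, values are given for up to 6 members higher and 6 lower with the largest change among those called, with a mean RPKM of at least 5 and libraries apart, for members called over the sensitive lines, for up to 4 highest and lowest at baseline, and for up to 4 other pathway genes. Further members were named after their values were seen. Alternatives were pseudocounts of 0.1 and 1, no filter or a mean of at least 5, rescaling, replicate blocks (the crossed one chosen after seeing the data), leaving out libraries or lines, 1 fit over 20 libraries and the NOISeq rule (probability over 0.8) recomputed from the RPKM. Gene positions are from GENCODE (GRCh37) and promoters from RefSeq (GRCh38.p14). Tables and plots used Python 3.11.15, pandas 2.3.3, numpy 2.4.6 and matplotlib 3.10.9.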

Additional observations from a re-analysis of the deposited data

Results flagged for a closer look

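These responses differed from that of RKO by limma's test of the difference itself (adjusted over all genes of each comparison, and all 4 comparisons share the RKO libraries). In COLO 320DM it was IFI6 (-0.52 log2 units). In UO-31 they were GBP2 (1.2), IFI27 (0.48) and TAP2 (-0.67).

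In OVCAR-4, the responses above that of RKO were GBP2 (1.19), IFI27 (0.58), GBP3 (0.57), HLA-F (0.54), IFITM1 (0.53), IFIT1 (0.52), IFIH1 (0.47), IFI35 (0.46), GBP1 (0.43), STAT2 (0.36), BST2 (0.32), ISG15, HLA-B and HLA-E (0.27 each), IFITM3 (0.26), HLA-C (0.21), TAPBP (0.19) and B2M (0.15), and TAP2 was below it (-0.44). In ABC-1, GBP2 (1.64), STAT2 (1.06), GBP3 (0.75), IFI35 (0.53) and HLA-E (0.27) were above it, and IFITM2 (-1.07), TAP2 (-0.79), IFIH1 (-0.51) and IFITM3 (-0.42) below. GBP1, GBP2, IFIT1, IFITM1 and IFIH1 had a mean RPKM under 1 in RKO, so their values here largely restate the change within the other line. All 32 kept their direction and passed on rescaled values. Those of IFI6 in COLO 320DM, TAP2 and IFI27 in UO-31, and HLA-F and IFIH1 in OVCAR-4 no longer passed when certain single libraries were left out.

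IFIH1 was above RKO in OVCAR-4 and below it in ABC-1, as was IFITM3. The difference between OVCAR-4 and ABC-1 was not tested.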

How the results depend on the processing

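None of the 43 calls within lines changed direction under any alternative run, and all 43 passed after rescaling by the median ratio. For the alternatives in this section other than rescaling, the share of all genes called was not taken. Their counts show how far the calls on members depend on the setting, and not how members compare with other genes. For COLO 320DM, 4 members were called, against 0 with no filter or by the NOISeq rule, 2 with a mean RPKM of at least 5, 1 under the replicate block, 8 under the crossed block (chosen after seeing the data), 7 in 1 fit over 20 libraries, and 0 to 5 without single libraries. For UO-31, 4 were called, against 2 with no filter, 16 rescaled, 7 under the replicate block, 1 under the crossed block, 18 in 1 fit over 20 libraries, 1 by the NOISeq rule, and 0 to 25 without single libraries. The NOISeq rule called 2 in OVCAR-4 (23 by limma) and 4 in ABC-1 (12 by limma). In RKO 1 was called at a mean RPKM of at least 5 and 3 under the crossed block. Without single libraries the counts ran from 21 to 24 in OVCAR-4 and from 9 to 15 in ABC-1. Against RKO, COLO 320DM had 1 member, against 2 at a pseudocount of 1, 5 rescaled, 0 and 6 under the block and the crossed block, and 0 to 6 without single libraries. UO-31 had 3, against 11 rescaled and 1 to 22 without single libraries, ABC-1 had 9 against 14 rescaled and 9 to 13 without single libraries, and OVCAR-4 had 19 against 17 to 19. Over the 4 sensitive lines 7 were called, against 14 with no filter, 4 at a mean RPKM of at least 5, 11 without COLO 320DM, and 6 to 9 without single libraries. At baseline, OVCAR-4 had 23 against 15 rescaled. The causes were not tested. The replicate numbers carry no stated pairing: same-numbered deviations correlated at -0.25 in COLO 320DM and ABC-1 and between -0.02 and 0.06 in the other lines, across genes. The replicate block lost 5 of the 43 calls, the crossed block 3, 1 fit over 20 libraries 6 and the run with no filter 7. The recomputed NOISeq rule lost 36 of the 43. NOISeq itself was not run. The table holds no counts, so a low RPKM has no counting error.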
